A study of Mus musculus with 1 sample.

Results

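The genes described here are 10 mouse chemokines, Cxcl1, Cxcl12, Cxcl13, Cxcl14, Cxcl16, Ccl2, Ccl7, Ccl11, Ccl19 and Ccl24, taken by symbol from the 32285 genes of the table. They were read in 1 single-cell RNA library of whole pancreas from mice aged 2 weeks, in which 5 to 6 pancreata had been pooled before digestion, with males and females in equal number per the study's methods. The genotype was Scap f/f, in which Scap carries floxed alleles and no Cre is present, and the sample title calls it wildtype. Because 1 library of pooled animals has no replicate, no value below has an error between animals, and every interval covers counting error only.

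Chemokines are small secreted proteins that bind G protein-coupled receptors and steer the movement of leukocytes and other cells. Some are made without pause by stromal and endothelial cells and hold leukocytes in a tissue, as CXCL12 does through CXCR4. Others, such as CXCL1, CCL2 and CCL7, are switched on within minutes by inflammatory and tissue-damage signals, and CXCL13 and CCL19 organize lymphoid tissue by attracting B cells and CCR7-bearing cells. Atypical receptors bind chemokines without G protein signaling and take them up.

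The library held 51540177 UMIs (molecular tags that count single transcripts) in 11789 barcodes. The limits, above 800 UMIs, below 100000 UMIs and under 15% from mitochondria, left 10947 barcodes with 49202966 UMIs, at a median of 2650. Each was placed in a class by lists of marker genes that contain none of the 10 chemokines. Classes bear the name of their list, so that mesothelial barcodes are those that passed the mesothelial gate. In each of the 19 classes of at least 20 barcodes, the top 10 genes by fold over the median class were read. They held Upk3b in mesothelial, Cdh5 in endothelial, C1qb and Mrc1 in macrophage and Fscn1 in mature dendritic barcodes. These are markers of the gates and are high by construction. Flt1 in endothelial and Ccr7 in mature dendritic barcodes were also there and are in no gate list. In barcodes gated by the monocyte list the neutrophil genes S100a9 and S100a8 led, and in those gated by the ductal list pancreatic enzyme genes stood among the leaders, so both are called by their list only. The 19 classes held 9334 barcodes, while 1265 barcodes passed gates of different lineages and were left out as mixed. Levels are summed UMIs of a gene per 1000000 UMIs of a class (CPM) with the exact Poisson 95% interval in brackets, and ratios of 2 levels have an exact conditional binomial 95% interval.

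In GRCm38, the assembly behind the authors' mm10 reference, Ccl2, Ccl7 and Ccl11 are neighbors on the forward strand of chromosome 11. Ccl2 lies at chr11:82035571-82037453, Ccl7 at chr11:82045712-82047525 and Ccl11 at chr11:82057823-82062955 (GENCODE M21), and the 3 genes span 27385 bases. Cxcl1 (chr5:90891241-90893115) and Cxcl13 (chr5:95956951-95961068) are both on the forward strand of chromosome 5, with 5063835 bases between them. Ccl24 is on the same chromosome on the reverse strand (chr5:135569937-135573049). Cxcl12 is on the forward strand at chr6:117168535-117181367. Cxcl14 (chr13:56288643-56296551), Cxcl16 (chr11:70453983-70459984) and Ccl19 (chr4:42754525-42756577) are on the reverse strand. A copy of Ccl19 on an unplaced scaffold had 0 UMIs, and since near-identical copies can share reads, the counts of Ccl19 are uncertain.

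RefSeq promoters (GRCm38.p6, 250 bases before the start site and 50 from it on) were at hand for Cxcl1, Cxcl12, Cxcl13, Cxcl14 and Ccl19. The windows of Cxcl1 and Cxcl13 are shown because only these, among the 5, held a match to the NF-kB consensus or to TATAAA. Both are given 5′ to 3′ on the forward strand, and capitals mark the NF-kB consensus in the first and TATAAA in the second.
Cxcl1, chr5:90890995-90891294: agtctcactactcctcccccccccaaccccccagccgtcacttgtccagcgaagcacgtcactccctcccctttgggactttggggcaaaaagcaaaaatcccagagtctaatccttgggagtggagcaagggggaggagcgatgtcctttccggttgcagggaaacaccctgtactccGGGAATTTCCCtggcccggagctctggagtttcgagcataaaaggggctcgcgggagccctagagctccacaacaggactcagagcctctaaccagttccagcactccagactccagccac
Cxcl13, chr5:95956689-95956988: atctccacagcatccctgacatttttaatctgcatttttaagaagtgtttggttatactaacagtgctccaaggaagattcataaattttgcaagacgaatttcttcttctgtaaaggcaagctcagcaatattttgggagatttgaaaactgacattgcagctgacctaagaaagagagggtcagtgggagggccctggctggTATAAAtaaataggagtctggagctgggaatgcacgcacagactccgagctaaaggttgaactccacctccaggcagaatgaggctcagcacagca
The NF-kB consensus matched Cxcl1 once on each strand, in overlapping stretches of 10 bases whose first base lay 71 and 70 bases upstream of the start site. It matched none of the other 4 windows, and 8.46% of all 32851 promoter windows held it on either strand. TATAAA matched the Cxcl13 window alone among the 5, from 46 to 41 bases upstream of the start site, against 13.6% of all windows. TGANTCA matched none of the 5 windows (7.81% of all windows), and CCAAT matched Ccl19 alone (37.4%). A match is a description of letters and says nothing about binding.

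Each chemokine had its highest level in 1 of 6 classes, and the order of the classes differed from gene to gene. Cxcl1, Cxcl14 and Ccl11 were highest in fibroblasts of the Rspo3 subset, Cxcl12 in endothelial barcodes, Cxcl13 in mesothelial barcodes, Ccl19 in barcodes with both fibroblast and mural markers, Cxcl16 in mature dendritic barcodes, and Ccl2, Ccl7 and Ccl24 in macrophages. When classes were merged into 9 lineages, the highest lineage stood at least 4-fold above every other for 4 of the 10 chemokines, Cxcl13, Cxcl16, Ccl11 and Ccl24, against 4.46% of 14576 genes with at least 50 UMIs (650 genes). At a fold of 2 the count was 8 of 10 against 14.7%, and at a fold of 10 it was 0 of 10 against 1.27%. The median fold over all genes was 1.14 and over the 10 chemokines 3.15. A lineage with fewer than 3 UMIs of a gene was set to 3, which is 34.2 CPM in the small Schwann lineage. This floor was the comparator for Cxcl14, Cxcl16, Ccl7, Ccl19 and Ccl24. Against this floor, Cxcl16 and Ccl24 were 7.005-fold and 8.76-fold higher in the myeloid lineage. The Ccl24 call rests largely on 2 myeloid barcodes, with 96 and 46 UMIs, which held 66.4% of all Ccl24 UMIs. The Ccl7 call at a fold of 2 was narrow, at 2.001-fold over the floor. Of its 40 myeloid UMIs, 28 came from 1 barcode. Cxcl14, at 24.4 CPM in the fibroblast and 3.97 CPM in the mesothelial lineage, and Ccl19, at most 21.8 CPM in a lineage, lay below the floor and could not be called. Barcodes with both fibroblast and mural markers were put in no lineage. The lineage comparison thus left out the class highest for Ccl19, at 124 CPM. The folds and counts therefore depend in part on how high a gene's level is. Of the barcodes, 14.7% were in none of the 19 classes, and they held between 2.34% (Ccl24) and 18.6% (Cxcl16) of the UMIs of a chemokine.

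**Figure D1:**
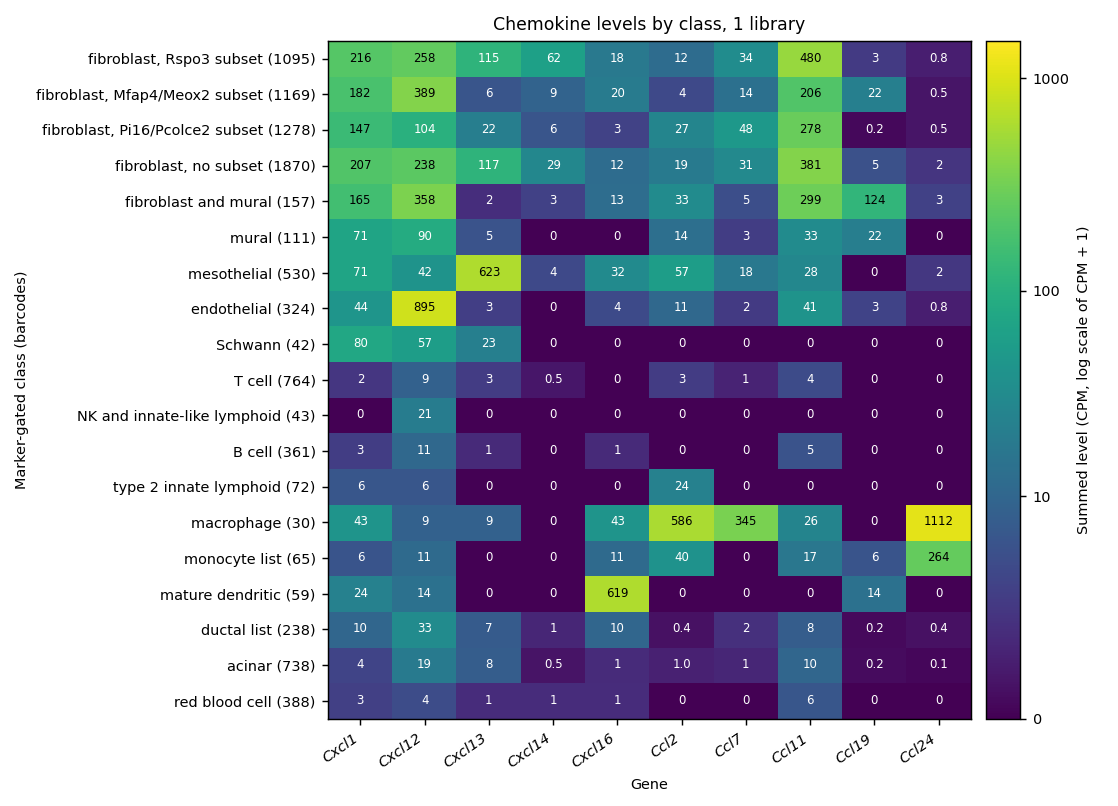
Summed level of each chemokine (columns, CPM, color on a log scale of CPM + 1) in the 19 marker-gated classes (rows, with the number of barcodes). Endothelial barcodes stand out for Cxcl12 (895 CPM), mesothelial barcodes for Cxcl13 (623 CPM), mature dendritic barcodes for Cxcl16 (619 CPM) and macrophages for Ccl2, Ccl7 and Ccl24, while T cells, B cells and red blood cells stay at or below 10.98 CPM in every column.

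Cxcl12, the ligand of CXCR4 that retains hematopoietic cells in tissue, was counted 8379 times in 3416 barcodes. Endothelial barcodes had 895 CPM (857 to 933, from 2157 UMIs). Among fibroblasts the Mfap4 Meox2 subset had 389 CPM (369 to 409.6), the Rspo3 subset 258 CPM (242 to 276) and the Pi16 Pcolce2 subset 104 CPM (95.4 to 112). The endothelial level was 2.30 times that of the Mfap4 Meox2 subset (2.15 to 2.46) and 8.63 times that of the Pi16 Pcolce2 subset (7.88 to 9.48). Barcodes with both fibroblast and mural markers, at 358 CPM (313 to 408), could not be told apart from the Mfap4 Meox2 subset, since the intervals overlap, and mural barcodes stood at 90.0 CPM (61.9 to 126), close to the Pi16 Pcolce2 subset. Although endothelial barcodes were highest per UMI, fibroblasts were more abundant and held 51.5% of all Cxcl12 UMIs against 25.7% in endothelial barcodes.

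A Cxcl12 UMI was found in 65.4% of endothelial barcodes (212 of 324, Clopper-Pearson 95% interval 60.0 to 70.6) at a median of 4466.5 UMIs, and in 2.09% of T cells (1.20 to 3.38) at a median of 1741 UMIs. T cells are taken as a class that should lack stromal chemokines, so their share is read as background. After each barcode was thinned to 800 UMIs the shares were 37.7% (32.4 to 43.2) and 1.18% (0.540 to 2.22), and those of the Mfap4 Meox2, Rspo3 and Pi16 Pcolce2 subsets were 25.6%, 18.1% and 8.69%, in the order of the CPM.

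Ccl11, or eotaxin, attracts eosinophils through CCR3. It needed 639 barcodes to hold 50% of its 7482 UMIs, the most of the set, a number that also depends on how many UMIs a gene has. The Rspo3 subset had 479.6 CPM (457 to 503), the Pi16 Pcolce2 subset 278 CPM (264 to 292) and the Mfap4 Meox2 subset 206 CPM (192 to 221), and no 2 of these intervals overlap. The Rspo3 level was 1.73 times that of Pi16 Pcolce2 (1.61 to 1.85) and 2.33 times that of Mfap4 Meox2 (2.13 to 2.53). Fibroblasts that met no subset rule, at 381 CPM (365 to 398), lay between. Outside fibroblasts the level dropped to 41.5 CPM in endothelial barcodes (33.7 to 50.4), 32.7 CPM in mural (16.9 to 57.2) and 28.4 CPM in mesothelial barcodes (22.7 to 35.1), 3 classes whose intervals overlap. The fibroblast lineage, with 37.9% of all UMIs, held 83.2% of the Ccl11 UMIs. Graph clusters, used in place of the gates, were named by their most frequent class, mixed barcodes aside. Those named for fibroblasts without a subset were highest (437 CPM against 413 CPM in the Rspo3 cluster), and the cause was not tested. Among them, clusters in which Rspo3 was the most frequent subset ranged from 237 to 589 CPM. With clusters named by their most frequent subset, the Rspo3 level was 1.49 times that of Pi16 Pcolce2. Thinned to 800 UMIs, 26.9% of Rspo3 fibroblasts (24.3 to 29.7) and 0.262% of T cells (0.0317 to 0.942) had a Ccl11 UMI, against 56.8% and 1.05% before.

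Cxcl1, a neutrophil attractant that acts through CXCR2, differed little between fibroblast subsets. The Rspo3 subset had 216 CPM (201 to 231, from 774 UMIs), the Mfap4 Meox2 subset 182 CPM (168 to 196) and the Pi16 Pcolce2 subset 147 CPM (137 to 157). The highest was 1.47 times the lowest (1.33 to 1.62), and fibroblasts without a subset, at 207 CPM (195 to 219), could not be told apart from the Rspo3 subset (ratio 1.04, 0.951 to 1.14). Mesothelial and mural barcodes were near 71 CPM (71.4, 62.2 to 81.6, and 70.9, 46.3 to 104) and endothelial barcodes at 44.4 CPM (36.4 to 53.6). Thinned to 800 UMIs, 12.1% of Rspo3 fibroblasts (10.3 to 14.2) and 0 of 764 T cells had a Cxcl1 UMI. The Clopper-Pearson upper limit of the T cell share was 0.482%, and 3 barcodes would be 0.393%.

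Cxcl14, a chemokine of epithelia and fibroblasts whose receptor is debated, was nearly absent outside fibroblasts. The Rspo3 subset had 62.4 CPM (54.5 to 71.2, from 224 UMIs). The Mfap4 Meox2 subset had 9.33 CPM (6.497 to 12.97) and the Pi16 Pcolce2 subset 5.83 CPM (4.02 to 8.19), and these 2 overlap. The Rspo3 level was 6.69 times that of Mfap4 Meox2 (4.67 to 9.85) and 10.7 times that of Pi16 Pcolce2 (7.40 to 15.9). No Cxcl14 UMI was counted in the 324 endothelial barcodes, where 3 UMIs would be 1.24 CPM. The most in 1 barcode was 7 UMIs, and 395 barcodes held the 532 UMIs. Thinned to 800 UMIs, 5.48% of Rspo3 fibroblasts (4.21 to 6.997) and 0 of 764 T cells had a Cxcl14 UMI. In graph clusters named by their most frequent class, the Rspo3 cluster, at 40.7 CPM, lay level with those of fibroblasts without a subset, at 41.1 CPM. With clusters named by their most frequent subset, the Rspo3 level was 4.80 times that of Mfap4 Meox2.

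Ccl19, a ligand of CCR7, was a low-count gene with 259 UMIs. Barcodes that carried both fibroblast and mural markers had 124 CPM (97.7 to 154, from 78 UMIs in 29 of 157 barcodes). The Mfap4 Meox2 subset had 22.4 CPM (17.9 to 27.7) and mural barcodes without fibroblast markers 21.8 CPM (9.42 to 43.0), which cannot be told apart. The level with both sets of markers was 5.52 times that of the Mfap4 Meox2 subset (4.004 to 7.60) and 5.67 times that of mural barcodes (2.74 to 13.6). The Rspo3 subset had 9 UMIs and the Pi16 Pcolce2 subset 1 UMI. Mature dendritic barcodes, a known source of CCL19 in lymph nodes, had 3 UMIs in all (14.2 CPM, 2.92 to 41.4), and mesothelial barcodes 0, where 3 would be 0.991 CPM. The 6 barcodes with the most Ccl19 UMIs, with 5 to 11 each, were all in the class with both sets of markers. Barcodes of that class had a median of 3009 UMIs, against 2553 in the Mfap4 Meox2 subset and 2070 in mural barcodes, and with Scrublet doublets taken out, 153 of the 157 remained and the level was 127 CPM. With the gate thresholds doubled, mural barcodes led instead (112 against 80.8 CPM), and with graph clusters, which gave no cluster with both sets of markers, the mural cluster led at 103 CPM.

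**Figure D2:**
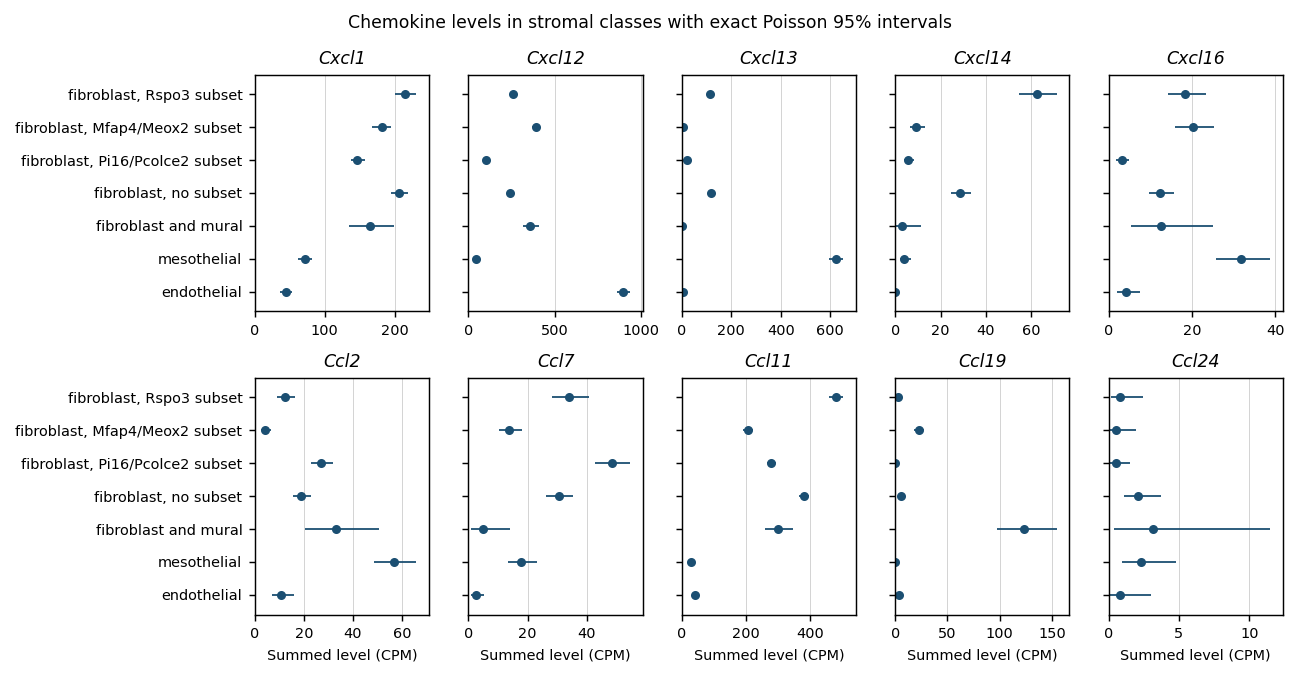
Summed level (horizontal axis, CPM, each panel on its own linear scale from 0) of each chemokine in 7 stromal classes (vertical axis), with points for levels and bars for exact Poisson 95% intervals. The Rspo3 subset leads among fibroblasts for Cxcl14 (62.4 CPM) and Ccl11 (479.6 CPM), the Mfap4 Meox2 subset for Cxcl12 (389 CPM), and the Pi16 Pcolce2 subset for Ccl2 (27.1 CPM) and Ccl7 (48.4 CPM).

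Of the 9 chemokines with at least 50 UMIs over the 3 fibroblast subsets, 4 were at least 2-fold higher in 1 subset than in the next, namely Cxcl13, Cxcl14, Ccl2 and Ccl19, against 5.67% of 11169 genes (633 genes). The median fold over all these genes was 1.13. The Cxcl13 call rests on few barcodes and reversed with graph clusters, where the ratio of the Rspo3 to the Pi16 Pcolce2 subset was 0.393 in place of 5.29. Ccl24, with 8 UMIs over the subsets, could not be ranked. None of the chemokines is among the markers of the subset gates, but genes and lists were chosen with earlier results of these data known.

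Ccl2 and Ccl7 encode monocyte attractants that share the receptor CCR2. In fibroblasts both were highest in the Pi16 Pcolce2 subset. Ccl2 had 27.1 CPM there (22.9 to 31.7, from 153 UMIs), 12.3 CPM in the Rspo3 subset (8.91 to 16.5) and 3.998 CPM in the Mfap4 Meox2 subset (from 15 UMIs). Ccl7 had 48.4 CPM (42.9 to 54.5, from 274 UMIs), 34.0 CPM (28.2 to 40.6) and 13.9 CPM (10.4 to 18.2) in the same order. The ratio of the Pi16 Pcolce2 to the Mfap4 Meox2 subset was 6.77 for Ccl2 (3.98 to 12.4) and 3.50 for Ccl7 (2.59 to 4.80). Thus Ccl2 and Ccl7 had their lowest level in the subset where Cxcl12 had its highest.

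Macrophages had the highest levels of both, but only 30 barcodes passed that gate. Ccl2 had 586 CPM (455 to 743, from 68 UMIs), 10.3 times the mesothelial level (7.67 to 13.7), and was found in 16 of the 30 barcodes, with at most 21 UMIs in 1. Ccl7 had 345 CPM (246 to 469.6) from 40 UMIs, but 28 of these came from 1 barcode, and without it the level was 107 CPM. A UMI of Ccl7 was found in 7 of the 30, and 6 of these 7 also had Ccl2. T cells, as the background, had a Ccl2 UMI in 0.654% of barcodes (0.213 to 1.52) and a Ccl7 UMI in 0.262%, against 53.3% (34.3 to 71.7) and 23.3% (9.93 to 42.3) of macrophages at a median of 3064 UMIs. The macrophage graph cluster was wider, with 159 barcodes, and its levels were 182 CPM of Ccl2 and 79.8 CPM of Ccl7. Mesothelial barcodes had 56.8 CPM of Ccl2 (48.7 to 66.0), which was 37.1 CPM without the barcode that held 60 of the 172 UMIs.

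Although their levels were below those of macrophages, fibroblasts held 75.5% of the Ccl7 UMIs and 42.2% of the Ccl2 UMIs of the library, with 37.9% of all UMIs. Only 113 fibroblasts had a Ccl2 UMI, and these differed in other chemokines from fibroblasts without one. They had 185 CPM of Ccl7 against 28.3 CPM in the 5299 others (ratio 6.53, 5.26 to 8.05) and 394 CPM of Cxcl1 against 178 CPM (ratio 2.21, 1.92 to 2.52). Ccl11 was 494 against 328 CPM (ratio 1.505, 1.33 to 1.69), and Cxcl12 went the other way, at 163 against 234 CPM (ratio 0.698, 0.564 to 0.854). Cxcl14 had 0 UMIs in the 113 barcodes, against 25.2 CPM in the others. Barcodes with a Ccl2 UMI were deeper, with a median of 4039 UMIs against 2662, and depth raises the chance that such a UMI is seen. Its part in the result was not tested. The groups also differed in make-up, since 50.4% of fibroblasts with a Ccl2 UMI were of the Pi16 Pcolce2 subset against 23.04% of those without. Within that subset, in values added after seeing the data, barcodes with a Ccl2 UMI still had 4.57 times the Ccl7 level (3.39 to 6.08) and 2.71 times the Cxcl1 level (2.22 to 3.29). Ccl11 (ratio 0.973, 0.781 to 1.199) and Cxcl12 (ratio 0.913, 0.622 to 1.298) did not differ there beyond counting error. The Ccl11 ratio was higher elsewhere, at 2.03 (1.57 to 2.60) in the Rspo3 subset and 2.15 (1.78 to 2.59) in fibroblasts without a subset. For the 6 Mfap4 Meox2 barcodes with a Ccl2 UMI the Ccl11 ratio was 2.10 (0.903 to 4.16).

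Inducible genes did not move as 1 block with these chemokines. In fibroblasts with a Ccl2 UMI, Nfkbia, which encodes an inhibitor of NF-kB that NF-kB induces, had 204 CPM against 70.3 CPM (ratio 2.90, 2.38 to 3.50). Within the Pi16 Pcolce2 subset the Nfkbia ratio was 2.08 (1.58 to 2.69), that of Fos 0.889 (0.838 to 0.943) and that of Il6 1.27 (0.949 to 1.67). The Il6 ratio was 2.85 (1.77 to 4.38) in the Rspo3 subset, 7.27 (4.12 to 11.9) in Mfap4 Meox2 and 1.77 (1.25 to 2.44) without a subset. For Fos the same classes gave 0.816 (0.725 to 0.916), 1.15 (0.940 to 1.40) and 1.12 (1.04 to 1.19), so its direction differed between classes. Over all fibroblasts Ier3 was 4.98 times higher (3.29 to 7.31) and the cytokine gene Il6 1.78 times (1.48 to 2.12). The immediate early genes Fos, Jun, Junb and Fosb were lower over all fibroblasts, with ratios of 0.893 (0.857 to 0.9296), 0.786 (0.736 to 0.837), 0.748 (0.691 to 0.808) and 0.755 (0.699 to 0.813). This did not hold in every class. In the order Rspo3, Mfap4 Meox2, Pi16 Pcolce2 and no subset, the ratios were 0.745, 0.923, 0.823 and 0.935 for Jun. They were 0.618, 1.06, 0.795 and 1.04 for Junb and 0.575, 1.41, 0.932 and 0.765 for Fosb. The Fosb interval was 1.03 to 1.89 in Mfap4 Meox2 and 0.839 to 1.03 in Pi16 Pcolce2. The 1233 fibroblasts with a Cxcl1 UMI had 1.16 times the Fos level of the rest (1.15 to 1.18), 1.18 times the Jun level (1.15 to 1.20), 1.73 times the Nfkbia level (1.55 to 1.93) and 2.02 times the Il6 level (1.86 to 2.19). The tissue had been digested with collagenase while warm before loading, and the part of that step in these levels was not tested.

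Cxcl13, which attracts B cells through CXCR5, was the chemokine with the most uneven distribution after Ccl24. Its 3619 UMIs were found in 468 barcodes, and 14 barcodes held 50% of them. Mesothelial barcodes had 623 CPM (595 to 652, from 1885 UMIs), 5.33 times the 117 CPM of fibroblasts without a subset (4.87 to 5.83) and 5.41 times the 115 CPM of the Rspo3 subset (4.86 to 6.03). All these values rest largely on a few barcodes. In the mesothelial class 1433 of the 1885 UMIs came from 17 barcodes, and the other 513 had 159 CPM. In the Rspo3 subset 363 of the 413 UMIs came from 3 barcodes, and in the Pi16 Pcolce2 subset 97 of 123 came from 1. A Cxcl13 UMI was found in 35.8% of mesothelial barcodes (31.8 to 40.1), 1.92% of Rspo3 fibroblasts (1.19 to 2.92) and 0.654% of T cells (0.213 to 1.52). The median depths were 3944.5, 2603 and 1741 UMIs, and after thinning to 800 UMIs the shares were 15.7% (12.7 to 19.0), 0.731% (0.316 to 1.43) and 0.262% (0.0317 to 0.942).

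**Figure D3:**
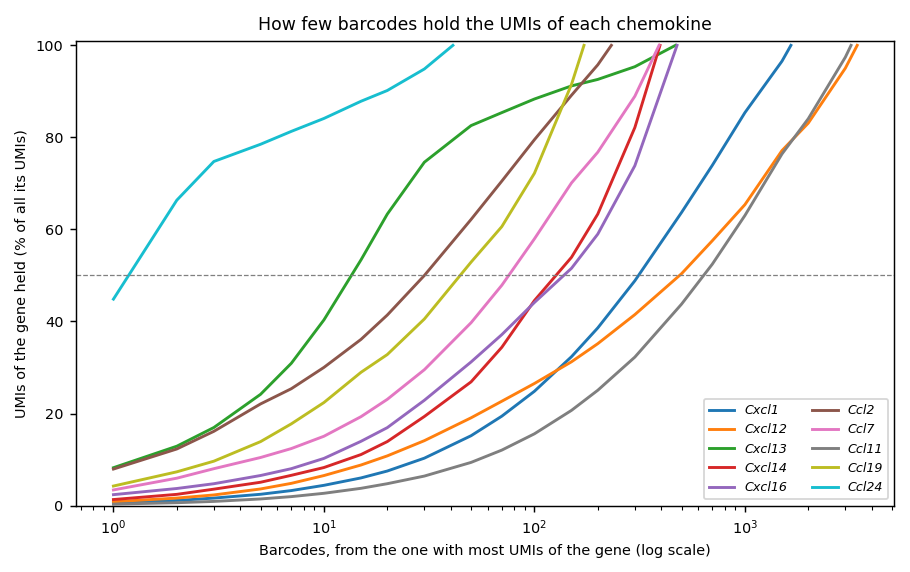
Share of the UMIs of each chemokine (vertical axis, percent) held by its richest barcodes, counted from the barcode with the most UMIs (horizontal axis, log scale), over 10947 barcodes. The dashed line marks 50%, which Ccl24 reaches with 2 barcodes, Cxcl13 with 14, Ccl2 with 30 and Ccl11 with 639.

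The 32 barcodes with at least 20 Cxcl13 UMIs, called Cxcl13-rich here, made up 0.292% of barcodes and held 75.8% of the Cxcl13 UMIs, with 22 to 298 each. The limit of 20 was set after the values had been seen. Their high Cxcl13 is how they were chosen and is no finding, but their other genes were not used. Of the 32, 17 had passed the mesothelial gate, 10 the fibroblast gate, 2 were mixed and 3 had passed no gate. In a clustering made without the 10 chemokines, 26 of the 32 fell into the mesothelial cluster of 609 barcodes, 6 of the 10 fibroblast-gated ones included. Scrublet, which scores likeness to simulated doublets, marked 2 of the 32. Even without the Cxcl13-rich barcodes, mesothelial barcodes had 159 CPM of Cxcl13 (144 to 174, 513 barcodes) and fibroblasts 11.1 CPM (9.66 to 12.7, 5402 barcodes).

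Among mesothelial barcodes, the 17 that were Cxcl13-rich were also high in inducible chemokines. Ccl2 had 499.7 CPM in them (from 89 UMIs) against 29.1 CPM in the other 513, a ratio of 17.1 (12.6 to 23.4). Of the 83 Ccl2 UMIs in those 513, 60 came from 1 barcode, without which the level was 8.11 CPM and the ratio 61.6 (38.6 to 102). No barcode was taken from the Cxcl13-rich side for that ratio, which can only raise it. Ccl2 was uneven there too, since 10 of the 17 had a UMI, and 33 of the 89 UMIs came from 1 barcode and 29 from another. Ccl7 had 174 against 8.08 CPM (ratio 21.6, 12.2 to 38.7) and Cxcl1 505 against 44.2 CPM (ratio 11.4, 8.62 to 15.1). The 31 Ccl7 UMIs of the Cxcl13-rich side were uneven too, with 12 in 1 barcode and 8 in another. The barcode with 8 was the one that held 33 Ccl2 UMIs, so the 2 results rest in part on the same barcode. Cxcl12 did not differ beyond counting error (ratio 1.68, 0.845 to 3.06), and Ccl11 had 0 UMIs in the 17 barcodes. The mesothelial surface markers were lower, with 269 against 1231 CPM of Upk3b and 44.9 against 563 CPM of Msln, while Wt1, a transcription factor of the mesothelium, was at 808 against 717 CPM (ratio 1.13, 0.946 to 1.34). Since the mesothelial gate counts these markers, fibroblast-gated barcodes are low in them by construction. The 10 Cxcl13-rich barcodes of the fibroblast gate had the same chemokines high, with 318 against 16.3 CPM of Ccl2 (ratio 19.6, 11.04 to 32.3), 159 against 32.9 CPM of Ccl7 (ratio 4.83, 2.08 to 9.58) and 418 against 185 CPM of Cxcl1 (ratio 2.26, 1.40 to 3.47), and Ccl11 low, with 79.6 against 334 CPM. The Cxcl13-rich barcodes of the mesothelial gate had a median of 9394 UMIs against 3809 in the others.

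**Figure D4:**
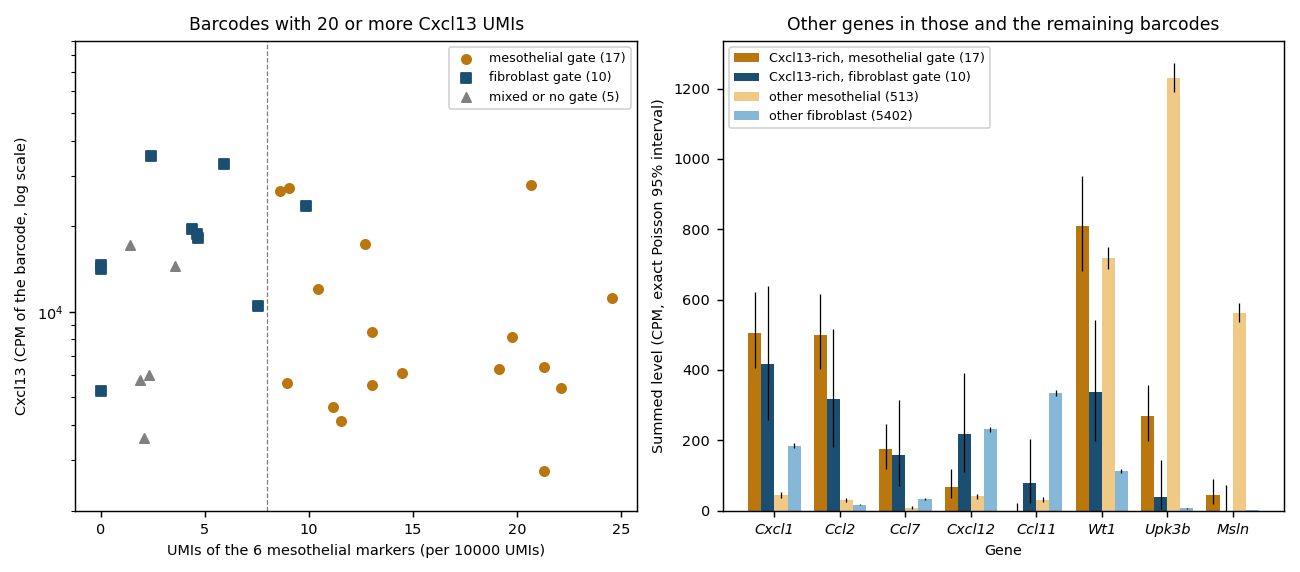
Left, Cxcl13 level (vertical axis, CPM of the barcode, log scale) and UMIs of the 6 mesothelial markers per 10000 UMIs (horizontal axis, dashed line at the gate of 8) in the 32 Cxcl13-rich barcodes, 1 point each. Right, summed levels (CPM, bars from 0 with exact Poisson 95% intervals) of other genes in Cxcl13-rich and remaining barcodes of both gates, where Ccl2, Ccl7 and Cxcl1 are higher and Upk3b and Msln lower in the Cxcl13-rich barcodes of the mesothelial gate than in the other 513.

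The 32 Cxcl13-rich barcodes together held 14.8% of the Ccl2 UMIs of the library and 4.98% of the Ccl7 UMIs, with 0.530% of all UMIs. A Ccl2 UMI was found in 19 of the 32, a Cxcl1 UMI in 19 and a Ccl7 UMI in 14. Genes chosen afterwards, as those with at least 30 UMIs in the 32 barcodes and the largest fold over the other 5915 fibroblast and mesothelial barcodes, are given as a description. After Cxcl13 itself the first was Gatm, which encodes an enzyme of creatine synthesis, with 1657 CPM against 21.9 CPM and a UMI in 31 of the 32 barcodes. Trf, which encodes transferrin, had 1020 against 31.3 CPM in 27 of 32, Tmem176a 648 against 25.6 CPM in 29 of 32, and the ligand gene Wnt4 238 against 12.1 CPM in 21 of 32. The interferon-inducible chemokine Cxcl10 was also among them, with 357 against 16.4 CPM in 16 of 32. Without the Cxcl13-rich barcodes, fibroblasts with a Ccl2 UMI still had 6.73 times the Ccl7 level (5.40 to 8.31) and 2.18 times the Cxcl1 level (1.89 to 2.51) of those without one.

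Cxcl16, a transmembrane chemokine that binds CXCR6 and is shed by ADAM10, was highest in mature dendritic barcodes. These 59 barcodes had 619 CPM (518 to 735, from 131 UMIs), 19.5 times the mesothelial level of 31.7 CPM (14.9 to 25.7) and 30.6 times that of the Mfap4 Meox2 subset (22.9 to 41.1). Macrophages had 43.1 CPM from 5 UMIs (14.0 to 100.6), a level that cannot be told apart from the mesothelial one. Among graph clusters the mature dendritic one, of 85 barcodes, had 459 CPM. A cluster of 36 barcodes named for the monocyte list also had Cxcl16, at 255 CPM from 39 UMIs. Barcodes of the monocyte gate had 11.5 CPM from 2 UMIs, and only 36.1% of that cluster had passed this gate. Of the mature dendritic barcodes 49 of 59 had a Cxcl16 UMI (83.1%, 71.0 to 91.6) and none held more than 16, so the level did not rest on a few barcodes. In T cells 0 of 764 had one. Thinned to 800 UMIs, 42.4% of the mature dendritic barcodes had a Cxcl16 UMI (29.6 to 55.9). Among fibroblasts the Mfap4 Meox2 subset, at 20.3 CPM (15.96 to 25.4), and the Rspo3 subset, at 18.4 CPM (14.2 to 23.4), overlapped, and the Pi16 Pcolce2 subset was lower at 3.18 CPM (18 UMIs, ratio to Mfap4 Meox2 0.157, 0.0884 to 0.265).

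Ccl24, or eotaxin-2, another CCR3 ligand, was counted 214 times in 41 barcodes, and 2 barcodes held 50% of the UMIs. Macrophages had 1112 CPM (929 to 1322), but 96 of their 129 UMIs came from 1 barcode and 18 from a second, and 9 of 30 had any. Without the first barcode the level was 299.96 CPM. The wider macrophage graph cluster of 159 barcodes had 285 CPM from 175 UMIs, with that first barcode included. Barcodes of the monocyte list had 264 CPM, all of it 46 UMIs in 1 barcode, and the other 64 had none. The 7 barcodes with both Ccl2 and Ccl24 among the macrophages made up most of the 9 with Ccl24. In stromal classes Ccl24 was at most 3.17 CPM, and no T cell had a UMI of it. The 32 Cxcl13-rich barcodes held 12 Ccl24 UMIs in 7 barcodes, which is 5.61% of the total.

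Of 14 receptor genes, 12 had at least 50 UMIs in the kept barcodes. Cxcr4, for CXCL12, was highest in B cells at 365 CPM (323 to 412), with 111 CPM in T cells (96.2 to 127). Endothelial barcodes, the class highest for Cxcl12, had 81.3 CPM of Cxcr4 (70.3 to 93.5), with a UMI in 26.2% of barcodes against 19.2% of the shallower T cells. Ackr3, the atypical receptor that takes up CXCL12, was instead highest in the Pi16 Pcolce2 fibroblasts, at 302 CPM (288 to 316, from 1707 UMIs), 2.96 times the Rspo3 subset (2.64 to 3.32). The fibroblast subset with the least Cxcl12 was thus the one with the most Ackr3. Cxcr5, for CXCL13, was at 156 CPM in B cells (129 to 188) and 10.3 CPM in T cells (6.19 to 16.05). Cxcr6, for CXCL16, was at 223 CPM in type 2 innate lymphoid barcodes (157 to 307) and 42.7 CPM in T cells (33.8 to 53.2).

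Ccr2, for CCL2 and CCL7, was at 466 CPM in macrophages, the class highest for both ligands (349.7 to 607), 362 CPM in barcodes of the monocyte list (278 to 463) and 301 CPM in type 2 innate lymphoid barcodes (224 to 397), whose intervals overlap. Ccr7, for CCL19, was at 1379.8 CPM in mature dendritic barcodes (1226 to 1548) and 261 CPM in T cells (238 to 285). Cxcr2, for CXCL1, had 15 UMIs in all, and 12 of them were in the 17 neutrophil barcodes, a class too small to be ranked. Ccr3, the receptor of CCL11 and CCL24, had 24 UMIs in the library and no class above 5 UMIs. No class large enough to be ranked thus carried more than 5 UMIs of Cxcr2 or of Ccr3, the signaling receptors for CXCL1, CCL11 and CCL24. The atypical receptors Ackr1 and Ackr2 were also highest in Pi16 Pcolce2 fibroblasts, at 68.8 and 7.60 CPM, the first 5.25 times the Rspo3 level (3.87 to 7.27). Ackr4, which takes up CCL19, had 16.8 CPM there against 9.86 CPM in the Mfap4 Meox2 subset (ratio 1.70, 1.15 to 2.56).

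**Figure D5:**
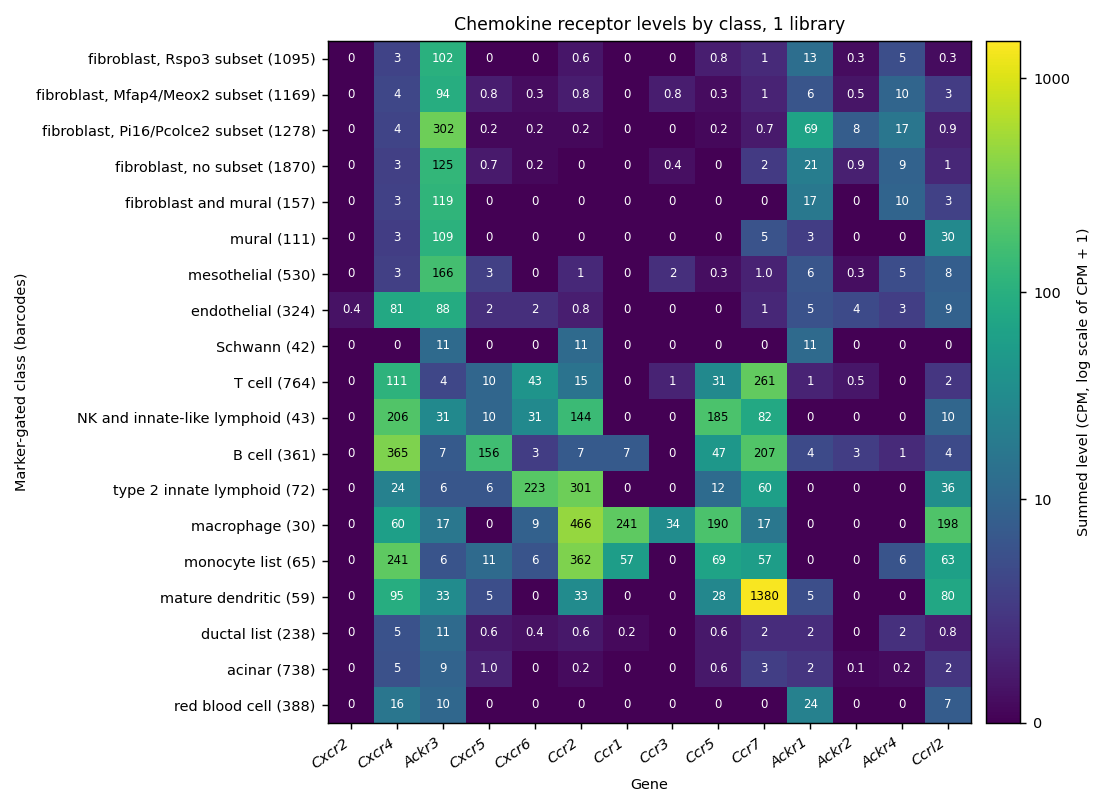
Summed level of 14 chemokine receptor genes (columns, CPM, color on a log scale of CPM + 1) in the 19 marker-gated classes (rows, with the number of barcodes). Signaling receptors other than Cxcr2 are highest in leukocyte rows, with 365 CPM of Cxcr4 and 156 CPM of Cxcr5 in B cells and 1379.8 CPM of Ccr7 in mature dendritic barcodes. Cxcr2 has 1 UMI in these rows, in endothelial barcodes. Endothelial barcodes also have 81.3 CPM of Cxcr4, while Ackr3 reaches 302 CPM and Ackr1 68.8 CPM in Pi16 Pcolce2 fibroblasts.

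Of the genes that process chemokines, Dpp4, whose product trims the N terminus of CXCL12 and CCL11, had 389.7 CPM in the Pi16 Pcolce2 subset, but it is a marker of that gate, so the value is no finding. Outside that gate it had 214 CPM in mesothelial barcodes (198 to 231) and 274 CPM in mature dendritic barcodes (208 to 354). Adam10, the main sheddase of CXCL16, had 325 CPM in endothelial barcodes (303 to 349). Adam17 was highest in macrophages at 129 CPM (72.4 to 213), an interval that holds the endothelial level of 80.5 CPM.

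Among 26 other chemokine ligands, 14 had at least 50 UMIs and 6 had fewer than 10. Cxcl11 is counted among the 6, but its symbol was not among the genes listed for the library, so it was not measured. The mature dendritic barcodes that led for Cxcl16 had 30601 CPM of Ccl5 (29860 to 31356), while NK and innate-like lymphoid barcodes had 2102 CPM. Cxcl2, a close relative of Cxcl1 that shares CXCR2, was highest in type 2 innate lymphoid barcodes at 729 CPM (605 to 871), with macrophages at 560.4 CPM (432.5 to 714), an interval that overlaps, and the Rspo3 fibroblasts at 2.23 CPM. Macrophages, which led for Ccl2 and Ccl7, also led for Ccl6 at 1423 CPM (1214 to 1657), Ccl9 at 483 CPM (365 to 627), Pf4 at 1371 CPM (1166 to 1601) and Ccl12, another CCR2 ligand, at 172 CPM from 20 UMIs. Ccl21a, the other CCR7 ligand, was highest in endothelial barcodes at 382 CPM (358 to 407), but 11 of the 324 barcodes held all its 921 UMIs there, 383 of them in 1.

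Genes whose log2(CPM + 10) followed a chemokine most closely over the 19 classes are given as a description, since the classes share 1 library. For Cxcl1 they were Cebpd, Pik3r2 and Rcn3 (Pearson's r 0.967, 0.965 and 0.964). For Cxcl12 they included Tmem47 and Snai2 (0.959 and 0.956), and for Ccl11 they were Igf2, Fap and Nrk (0.967, 0.965 and 0.961). Cxcl13 was followed by Wt1, a marker of the mesothelial gate, Enpp2 and Sema3a (0.899, 0.878 and 0.8702), Cxcl14 by Mageb18, Magel2 and Klf14 (0.975, 0.975 and 0.934), and Cxcl16 by Rtn1, Il15 and Kcnk6 (0.904, 0.9002 and 0.892). Ccl2 was followed by Gm17268, Hmox1 and Mcub (0.945, 0.871 and 0.8603), Ccl7 by Ifi202b, Plau and Fignl2 (0.892, 0.888 and 0.886), Ccl19 by Fat3, Ccn4 and Crispld2 (0.829, 0.818 and 0.776) and Ccl24 by Retnla, Cx3cr1 and Ccl6 (0.978, 0.9404 and 0.936).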

How the data were processed

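Pancreata of 5 to 6 mice were pooled, digested and loaded as 1 droplet library of the 3′ kind. The authors aligned the reads to mm10 with Cell Ranger 7.1.0 (processing notes) and deposited raw UMI counts, as whole numbers for each gene in each barcode. Removal of free RNA and the upper limit of 10000 UMIs in their methods are not visible in these counts.

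Kept were 10947 of 11789 barcodes, those between 800 and 100000 UMIs with less than 15% of them mitochondrial, and 818 of these lay at or above the study's limit. The 10 genes and all lists were chosen with earlier results of these data known, and the gate thresholds were set after the values had been seen. A barcode passed a gate with at least 2 markers and 8 marker UMIs per 10000 UMIs, a fibroblast gate with 1% of UMIs in the fibroblast list, and an acinar, red blood cell or endocrine gate with 3%. The ductal gate needed 3 markers, and the smooth muscle gate 3 markers and 20 UMIs per 10000. Fibroblasts joined a subset with 2 UMIs of its list and a score, relative to the fibroblast mean, of at least 1 and 1.5 times the next. Leukocytes joined the list with the largest share of markers seen. Doublets were left in, apart from the 1265 barcodes that passed gates of different lineages (fibroblast with mural, and mesothelial with fibroblast or ductal, were allowed). Scrublet marked 537 barcodes (4.91%). Poisson, Clopper-Pearson and conditional binomial 95% intervals, tested on simulated data, cover counting error only. Thinning drew 800 UMIs per barcode. Named genes are the members, fixed lists of receptors, ligands, processing and early genes, and the 3 genes most like a member by r among genes with at least 200 UMIs, of which 1 is not reported here. Python 3.11.15, numpy 2.4.6, scipy 1.17.1, pandas 2.3.3 and scanpy 1.11.5 were used. No test between groups was possible with 1 library.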

Additional observations from a re-analysis of the deposited data

How the results depend on the processing

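No paired analysis was possible because there is 1 library. All 10 highest-class levels moved by less than counting error when Scrublet doublets were taken out, an ambient profile was subtracted or enzyme UMIs left the denominator. The same held when mitochondrial UMIs were held under 5% or barcodes needed over 1500 UMIs. The ambient profile came from the 752 barcodes at or under the lower limit of 800 UMIs. Every deposited barcode had at least 500 UMIs, so emptier droplets were not at hand. The subtraction therefore could not test for free RNA. With graph clusters in place of gates the levels were 841 CPM for Cxcl12, 876 for Cxcl13, 40.7 for Cxcl14, 459 for Cxcl16, 182 for Ccl2, 79.8 for Ccl7, 413 for Ccl11 and 285 for Ccl24. Under 10000 UMIs Cxcl12 had 1076 CPM and Ccl24 1398 CPM. The mean over barcodes gave 1038 CPM for Cxcl12, 537 for Cxcl13, 512 for Ccl11 and 842 for Ccl24. Without the richest barcode Cxcl13 had 579 CPM, Ccl2 426, Ccl7 107 and Ccl24 299.96.

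The next alternatives were chosen after seeing the data. Without the 10 richest barcodes the levels were 186 CPM for Cxcl1, 719 for Cxcl12, 273 for Cxcl13, 52.8 for Cxcl14, 120.2 for Ccl2, 0 for Ccl7 and for Ccl24, 444 for Ccl11 and 38.1 for Ccl19. The values of 0 were fixed in advance, since only 7 and 9 of the 30 macrophages had a UMI of Ccl7 and Ccl24. Taking out 10 barcodes also removes a far larger part of the 30 macrophages than of the 1095 Rspo3 fibroblasts. With gate thresholds doubled Cxcl13 had 320.2 CPM and Ccl19 80.8 CPM. Without Cxcl13-rich barcodes the ratio of the highest to the next fibroblast subset was 3.04 for Cxcl13. Over all fibroblasts the Ccl11 ratio of those with to those without a Ccl2 UMI was 1.505. Within the Pi16 Pcolce2 subset it was 0.973 (0.781 to 1.199), no difference beyond counting error, and the cause was not tested.

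With graph clusters the ratio of the highest to the next subset was 1.07 for Cxcl1, 1.86 for Cxcl12 and 1.49 for Ccl11, and it reversed for Cxcl13 to 0.393. The cause was not tested. Ambient subtraction gave no ratio for Ccl19. Thinned to 800 UMIs, the share of barcodes with a UMI was 12.1% for Cxcl1, 37.7% for Cxcl12, 15.7% for Cxcl13, 5.48% for Cxcl14, 42.4% for Cxcl16, 33.3% for Ccl2, 26.9% for Ccl11 and 7.64% for Ccl19. The count of chemokines higher in 1 lineage than in any other was 4 at a fold of 4, against 4.46% of 14576 genes. It was 8 at a fold of 2 (14.7% of genes) and 0 at a fold of 10 (1.27%). The highest class stayed the same for 9 of 10 chemokines with doubled gates (not Ccl19) and over 1500 UMIs (not Cxcl1), for 7 of 10 with graph clusters (not Cxcl14, Ccl11 or Ccl19), and for 10 of 10 in the other 6 alternatives compared. Depth limits the small classes, and 3 UMIs are 25.9 CPM in the 30 macrophages.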
